A study of Mus musculus with 6 samples.

Results

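The Slc25 genes encode the mitochondrial carrier family and were taken as every gene of the deposited count table named Slc25a followed by a number. They numbered 47 of 24421 genes, and 41 of them passed the filter on low counts, among 13977 genes tested. Kidney cortex RNA was sequenced from mice expressing I-PpoI, a site-specific homing endonuclease that makes double-strand breaks, in proximal tubular epithelial cells (I-PpoI), and from wild type mice (WT), with 3 libraries in each group. The labels give no promoter for the transgene, no age and no treatment, and they do not say whether the libraries of a group came from different mice. The p-values therefore measure only the spread between these libraries. The library names take 2 forms: I-PpoI replicate 3 and WT replicates 2 and 3 have a hyphen before the final number, and I-PpoI replicates 1 and 2 and WT replicate 1 do not. The labels attach no meaning to the hyphen. Both contrasts, I-PpoI against WT and hyphenated against plain names, are described here for the carriers.

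Mitochondrial carriers are small proteins of 6 membrane-spanning segments, most of them in the inner mitochondrial membrane, that move nucleotides, phosphate, carboxylates, amino acids, cofactors and iron between the cytosol and the matrix. They supply the respiratory chain with ADP and phosphate and carry the intermediates of shuttles that link the pathways on either side of the membrane. The proximal tubule, which makes up most of the cortex, reabsorbs solutes with ATP made in its many mitochondria.

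Libraries held 13582540 to 20861021 counted read pairs, and all pairs of libraries had Spearman correlations of 0.985 to 0.996 across genes. Slc25 genes took 0.729%, 0.745% and 0.695% of the counts in I-PpoI replicates 1, 2 and 3 and 0.738%, 0.698% and 0.695% in WT replicates 1, 2 and 3. On the first principal component, plain-named I-PpoI replicates 1 and 2 lay at -15.5 and -19.2 and hyphenated I-PpoI replicate 3 at 8.46, while WT replicates 1, 2 and 3 lay at -2.64, 13.9 and 15. The cortex label was checked on marker genes. Proximal tubule markers were abundant, summing over 20 genes to 25130 to 32060 counts per 1000000 counted read pairs (CPM) in I-PpoI and 29930 to 35580 CPM in WT, and 18 of the 20 had fold changes below 0. Thick ascending limb markers, 12 genes all above 0, summed to 8047 to 8291 CPM in I-PpoI and 5753 to 6529 CPM in WT. Collecting duct principal cell markers, 10 genes all above 0, summed to 1088 to 1217 CPM in I-PpoI and 802.4 to 845.9 CPM in WT. The 7 thin limb and inner medulla markers, of which 4 passed the filter and Akr1b3 had 0 counts, summed to 216.7 to 259.1 CPM in I-PpoI and 89.72 to 125.6 CPM in WT. Of 12 proximal straight tubule markers 9 lay below 0 and 3 above. They summed to 5822 to 8448 CPM in I-PpoI and 7830 to 11100 CPM in WT. All 9 intercalated cell markers of the collecting duct lay above 0. Of 9 distal convoluted tubule markers 7 lay below 0 and 2 above. Over all genes tested 50.1% lay above 0. By edgeR's adjusted p under 0.05, 2 thick ascending limb, 2 principal cell and 1 thin limb marker were higher in I-PpoI. Of the 20 proximal tubule markers 0 were called, beside 0.136% of all genes. Fewer cells of a type and less RNA per cell cannot be told apart in these bulk libraries, and the part that these shifts have in the carrier values was not tested.

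The carriers of energy exchange stood at the head of the family. Levels are compared between genes as CPM per kilobase of exon, averaged over the 6 libraries. Slc25a5, the adenine nucleotide translocase ANT2 that exchanges ADP for ATP, had the highest level at 1089 CPM per kb, with libraries from 989 to 1171. Slc25a3, the phosphate carrier, followed at 674.3 CPM per kb, ahead of Slc25a39, a glutathione importer, at 494.7, and Slc25a4, the translocase ANT1, at 403.7. The library values of Slc25a5 lay above those of Slc25a3, and those of Slc25a3 above those of Slc25a39, whereas the ranges of Slc25a39 (446.1 to 565) and Slc25a4 (379.3 to 461) overlapped. These 4 genes held 67.8% of the family's summed CPM per kb. Slc25a4 and Slc25a5 are close paralogs and reads mapping to several places were not counted, so their levels are uncertain.

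Carboxylate and cofactor carriers came next. Slc25a10, the dicarboxylate carrier, had 185.2 CPM per kb, Slc25a11, the oxoglutarate carrier of the malate-aspartate shuttle, 121.2, and Slc25a1, the citrate carrier, 98.99. Slc25a17, a carrier of peroxisomes for coenzyme A and related nucleotides, had 92.05 CPM per kb, Slc25a20, the carnitine-acylcarnitine carrier of fatty acid import, 75.48, and Slc25a42, a coenzyme A carrier, 69.33. In this run of levels the library ranges of Slc25a10 and Slc25a11 were apart (160.6 to 209.7 and 113 to 130.8), while Slc25a1 and Slc25a17 overlapped (93.8 to 108.5 and 84.71 to 103.7), and so did Slc25a20 and Slc25a42 (62.92 to 99.58 and 57.07 to 82.76). The 10 highest members held 84.2% of the summed level, 29 members exceeded 10 CPM per kb, 11 lay between 1 and 10, and 7 lay under 1.

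The 6 members left out by the filter were Slc25a18, Slc25a43, Slc25a2, Slc25a31, Slc25a41 and Slc25a54. Slc25a18, the second glutamate carrier, was the highest of them at 0.2801 CPM per kb. Slc25a31, the translocase ANT4 known from male germ cells, had counts in I-PpoI replicates 1 and 2 alone, at 0.1058 and 0.05517 CPM. Slc25a54 had 0 counts in all 6 libraries. Slc25a53, at 0.3636 CPM per kb, was the lowest member tested.

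**Figure D1:**
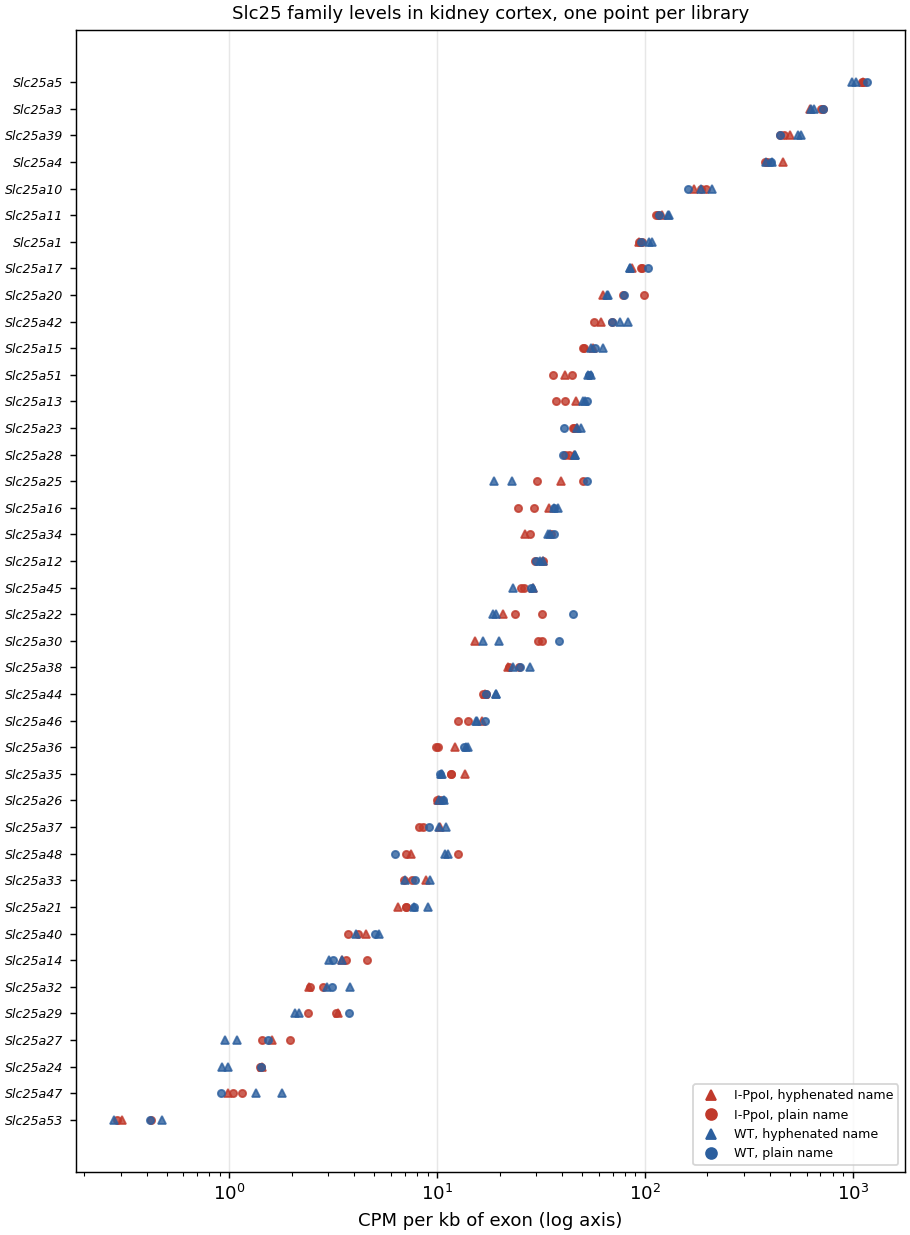
Level of 40 of the 41 tested Slc25 genes in CPM per kb of exon (log axis), 1 point per library, ordered by the mean; red is I-PpoI, blue WT, triangles hyphenated and circles plain library names. Slc25a5 tops the family at 1089 CPM per kb and Slc25a53 ends it at 0.3636, and triangles and circles separate for Slc25a30 and Slc25a22.

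No Slc25 gene passed the test between I-PpoI and WT. With edgeR's quasi-likelihood test and an adjusted p under 0.05, 19 of 13977 genes (0.136%) were called, all higher in I-PpoI, and the 41 carriers held 0 of them. limma-voom likewise called 0 carriers, and DESeq2 called 1, Slc25a51, as lower in I-PpoI. Calls on both sides came from DESeq2, fitted to 18677 genes without the low-count filter, with 128 genes higher and 59 lower. They came too from edgeR without I-PpoI replicate 3, with 261 higher and 364 lower of 14219 genes. With no low-count filter, edgeR called 44 higher and 3 lower of 18677 genes. Both sides were also called with the name form in the fit (49 higher, 15 lower) and with a replicate block (33 higher, 7 lower). An unadjusted p under 0.05 was found for 1 carrier on the higher and 7 on the lower side, which is 2.44% and 17.1% of the 41, beside 6.42% and 5.61% of all genes tested. Fold changes lay below 0 for 26 carriers and above 0 for 15, which is 63.4% and 36.6% of the family, beside 49.9% and 50.1% of all genes. The median log2 fold change over the 41 was -0.06, beside 0.00 over all genes. Their summed level was 6960 to 7237 CPM in I-PpoI and 7178 to 7380 CPM in WT, so the groups overlapped for the family as a whole.

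Cofactor and nucleotide carriers held most of the small p-values. Of 11 tested, 9 had fold changes below 0 and 5 of those had an unadjusted p under 0.05, though 0 rose and 0 fell by the adjusted test. Their median log2 fold change was -0.21, and their summed level was 1532 to 1632 CPM in I-PpoI and 1661 to 1862 CPM in WT. The group sums did not overlap, though only narrowly. Slc25a39 and Slc25a42 made up most of the summed level, and each of these genes overlapped between the groups.

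Slc25a51 imports NAD+ into the mitochondrial matrix and lies at chr4:45395924-45408766 (mm10). It had 198.3, 161.2 and 182.3 CPM in I-PpoI and 239.2, 235.8 and 244.1 CPM in WT. All 3 I-PpoI libraries lay below all 3 WT libraries. Its mean was 180.6 ± 18.6 CPM in I-PpoI and 239.7 ± 4.16 CPM in WT (SD, n = 3 each), and the log2 fold change was -0.41 ± 0.09 (SE). The adjusted p was 0.190 by edgeR, 0.183 by limma-voom and 0.0131 by DESeq2. The log2 difference was -0.42 within plain names and -0.40 within hyphenated names, and the edgeR adjusted p was 0.115 once the name form entered the fit.

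Slc25a36, a pyrimidine nucleotide carrier, had 30.38, 30.84 and 37.35 CPM in I-PpoI and 41.32, 42.17 and 43.33 CPM in WT. The groups did not overlap, and hyphenated I-PpoI replicate 3 stood nearest to WT. The log2 fold change was -0.37 ± 0.10 (adjusted p = 0.225 by edgeR). It was -0.43 within plain names and -0.19 within hyphenated names. Slc25a16, a carrier linked to coenzyme A, showed the same arrangement, with 91.81, 77.08 and 109.1 CPM in I-PpoI and 114.6, 115.2 and 119.4 CPM in WT (log2 fold change -0.33 ± 0.12, edgeR adjusted p = 0.352; -0.45 within plain and -0.10 within hyphenated names).

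Slc25a42 had 181, 221.5 and 195.5 CPM in I-PpoI and 219.4, 262.5 and 239.7 CPM in WT. I-PpoI replicate 2 exceeded WT replicate 1, so the groups overlapped, and the log2 fold change of -0.27 ± 0.10 had an edgeR adjusted p of 0.379. Slc25a32, which carries folate and flavin adenine dinucleotide, stood at 8.361, 7.228 and 7.158 CPM in I-PpoI and 9.246, 11.28 and 8.716 CPM in WT, without overlap (log2 fold change -0.35 ± 0.14, edgeR adjusted p = 0.395). Other members of the class had smaller differences. Slc25a26, the S-adenosylmethionine carrier, had a log2 fold change of -0.06 ± 0.09. Slc25a39 stood at -0.14 ± 0.11 and its relative Slc25a40 at -0.21 ± 0.14.

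**Figure D2:**
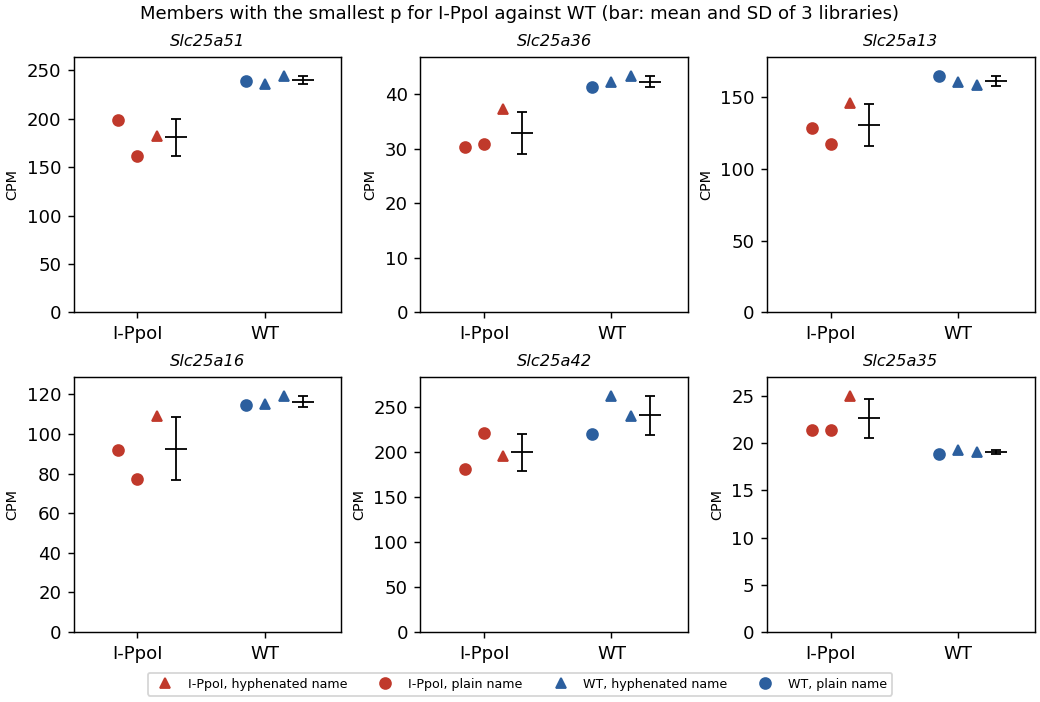
CPM per library of 6 members with the smallest p for I-PpoI against WT, I-PpoI left and WT right, with mean and SD of 3 libraries beside the points; red is I-PpoI, blue WT, triangles hyphenated and circles plain names. Slc25a51, Slc25a36, Slc25a13 and Slc25a16 lie lower and Slc25a35 higher in I-PpoI without overlap, and Slc25a42 overlaps.

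Among amino acid and carnitine carriers, 8 of 11 tested lay below 0 and 3 above, and 0 rose and 0 fell. Their median was -0.12 on the log2 scale. Slc25a13 (citrin) and Slc25a12 (aralar) are paralogs that exchange aspartate for glutamate in the malate-aspartate shuttle. Slc25a13 had 128.5, 117.1 and 145.9 CPM in I-PpoI and 164.7, 160.6 and 158.1 CPM in WT, without overlap. Its log2 fold change was -0.30 ± 0.09 (edgeR adjusted p = 0.295), with -0.43 within plain and -0.13 within hyphenated names. Slc25a12 had 94.09, 86.51 and 94.82 CPM in I-PpoI and 87.16, 94.72 and 91.05 CPM in WT, interleaved, with a log2 fold change of 0.01 ± 0.08. Whether the paralogs' changes differ was not tested. Slc25a44, a carrier of branched-chain amino acids, also did not overlap, at 61.54, 59.98 and 60.95 CPM in I-PpoI and 61.64, 68.9 and 68.93 CPM in WT, but its lowest WT value nearly met the I-PpoI values (log2 fold change -0.13 ± 0.08). Slc25a15, the ornithine carrier of the urea cycle, stood at -0.15 ± 0.09, and Slc25a38, the glycine carrier of heme synthesis, at -0.14 ± 0.09.

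Carboxylate carriers lay on both sides of 0, with 2 of 7 above and 5 below, and their log2 fold changes had a median of -0.11. Slc25a35 was the 1 carrier of the family past an unadjusted p of 0.05 on the higher side. It had 21.38, 21.41 and 25.02 CPM in I-PpoI and 18.88, 19.31 and 19.03 CPM in WT, without overlap (log2 fold change 0.24 ± 0.10, edgeR adjusted p = 0.393). Its exons share 128 bases with Rangrf on the opposite strand, which had 13.55, 13.41 and 13.32 CPM in I-PpoI and 12.33, 10.6 and 10.21 CPM in WT. The counting set no strand option, so strand did not assign reads in the shared bases to either gene. Slc25a21, the oxodicarboxylate carrier, had 19.53, 19.7 and 17.86 CPM in I-PpoI and 21.43, 21.35 and 25.1 CPM in WT, without overlap (log2 fold change -0.25 ± 0.10, edgeR adjusted p = 0.397). The abundant Slc25a10, Slc25a11 and Slc25a1 had log2 fold changes of 0.00 ± 0.12, -0.11 ± 0.08 and -0.11 ± 0.08.

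The other classes had 0 calls in either direction, beside 0.136% of all genes. The adenine nucleotide and phosphate carriers Slc25a3, Slc25a4 and Slc25a5 had log2 fold changes of 0.04 to 0.06, and their summed level was 2895 to 2960 CPM in I-PpoI and 2651 to 3050 CPM in WT. All 3 ATP-Mg/phosphate carriers tested lay above 0, with a median of 0.35, but Slc25a25 varied more within WT (224, 79.65 and 96.78 CPM) than between the groups. Both iron carriers, the mitoferrins Slc25a37 and Slc25a28, lay below 0 at -0.17 ± 0.11 and -0.03 ± 0.08. Slc25a14, related to the uncoupling proteins, had 8.626, 6.842 and 6.52 CPM in I-PpoI and 5.875, 6.512 and 5.628 CPM in WT, without overlap by a narrow gap (log2 fold change 0.30 ± 0.16, edgeR adjusted p = 0.468).

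In all, 9 of the 41 carriers did not overlap between the groups (22%, beside 17% of all genes tested). Of these, 7 were lower in I-PpoI, 17.1% beside 7.73% of all genes, and 2 were higher, 4.88% beside 9.22%. Among carriers left out by the filter, Slc25a18 was higher and Slc25a2 lower without overlap in CPM, at under 1 CPM in every library. Their raw counts did overlap. Slc25a18 had 9, 10 and 6 counts in I-PpoI and 4, 4 and 7 in WT. Slc25a2 had 1, 1 and 1 in I-PpoI and 6, 1 and 2 in WT.

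**Figure D3:**
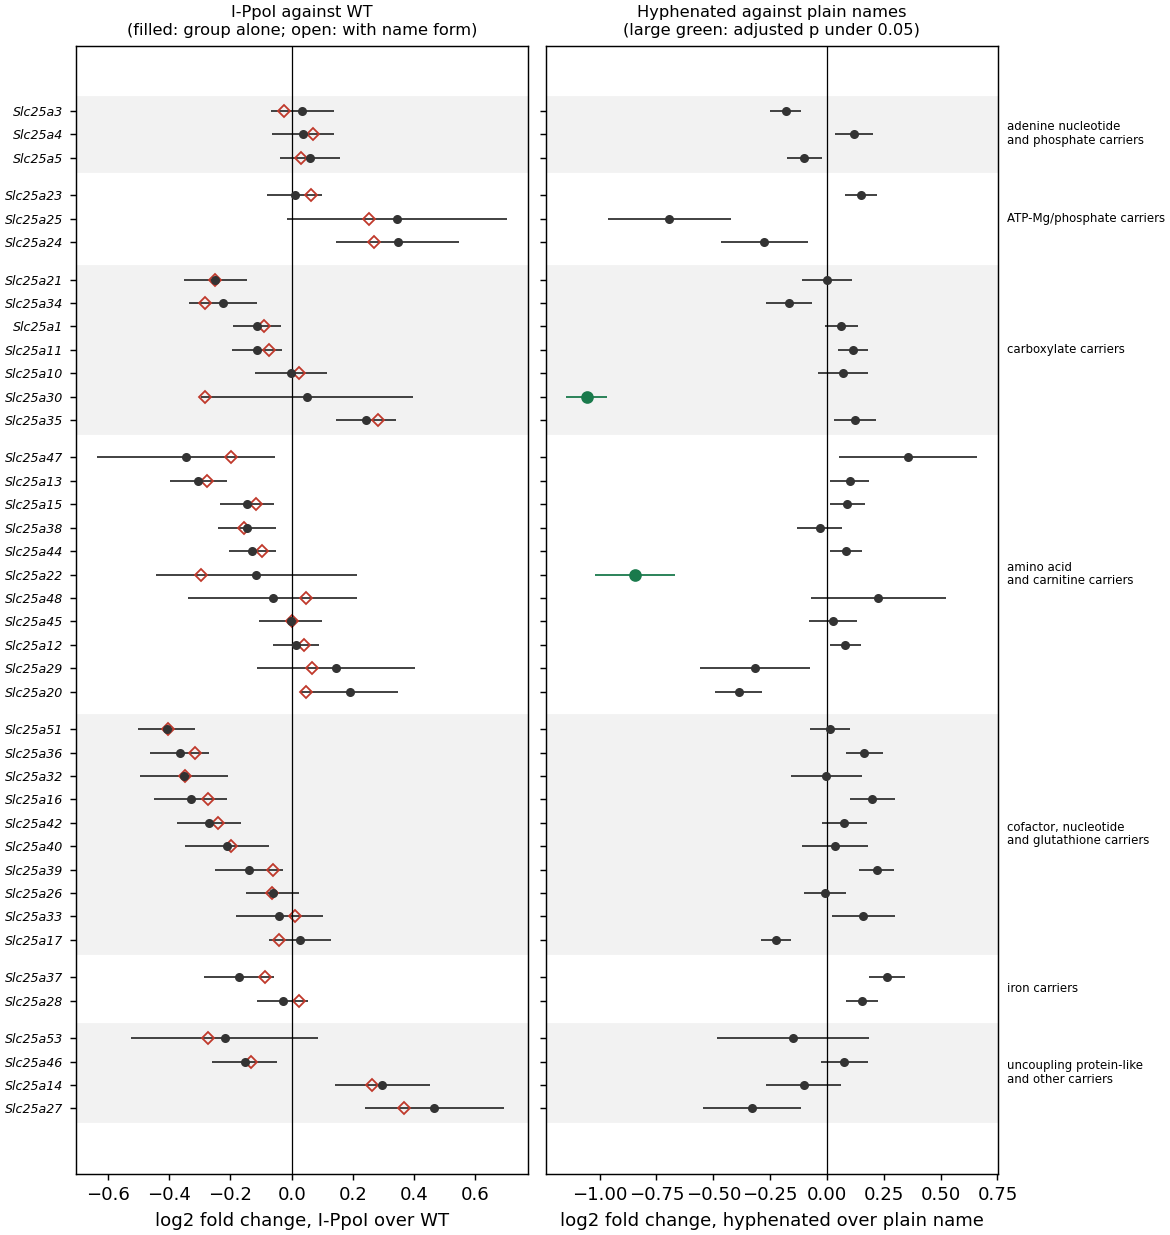
Log2 fold changes of 40 of the 41 tested carriers by class, with SE bars: left, I-PpoI over WT (filled circles, group alone; open diamonds, name form held in the fit); right, hyphenated over plain names with the group as a term, where large green points have an adjusted p under 0.05. On the left most cofactor carriers lie below 0, and on the right Slc25a30 and Slc25a22 stand apart at -1.06 and -0.84.

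The groups were also compared within each name form. The I-PpoI difference was below 0 in both forms for 18 of 41 carriers (43.9%, beside 26.4% of all genes), above 0 in both for 5 (12.2%, beside 26.2%) and of opposite sign for 18. The plain-named WT side and the hyphenated I-PpoI side hold 1 library each, so each difference rests on that library. When the fit held the name form, edgeR called 64 genes (0.458%), 49 higher and 15 lower in I-PpoI (0.351% and 0.107%), and 0 carriers. An unadjusted p under 0.05 was reached by 1 carrier on the higher and 7 on the lower side. These are 2.44% and 17.1% of the family, beside 6.24% and 6.32% of all genes. The 7 lower carriers were not the same 7 as without the name form. Slc25a21 and Slc25a32 left (edgeR unadjusted p = 0.05002 and 0.05101), and Slc25a30 and Slc25a34 entered (0.01143 and 0.0201). DESeq2 called Slc25a51 lower in that fit too, and limma-voom called 0 carriers.

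**Figure D4:**
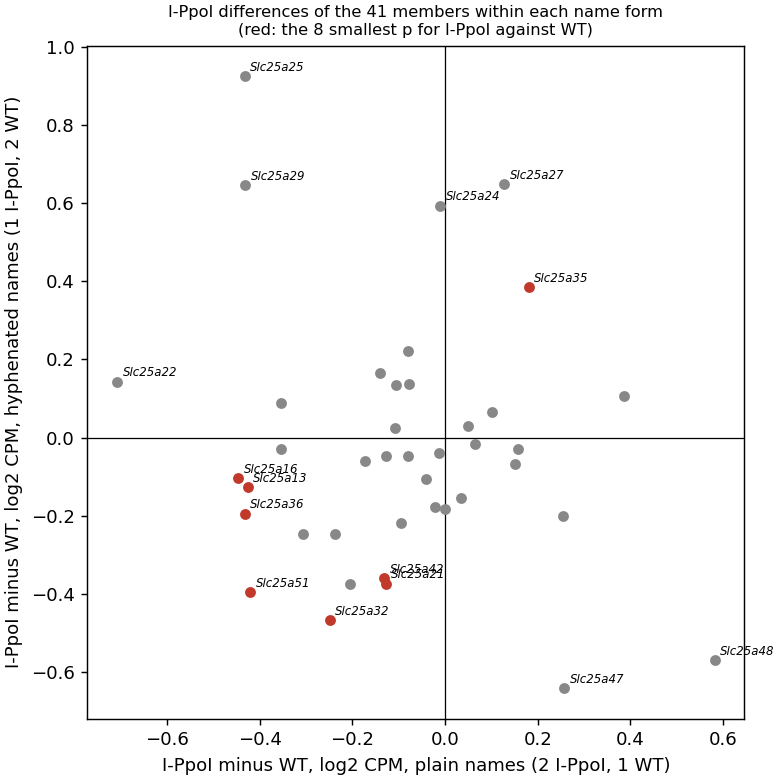
Log2 CPM difference of I-PpoI minus WT for each of the 41 tested carriers within plain names (x axis, 2 I-PpoI and 1 WT library) and within hyphenated names (y axis, 1 I-PpoI and 2 WT libraries); red points have the 8 smallest p for I-PpoI against WT. The lower left area holds 18 carriers and the upper right 5, and Slc25a51 lies near -0.4 on both axes.

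Genes that work beside the carriers were not called between the groups either. Only 0.136% of all genes tested were called, so 0 calls in lists this short do not set these genes apart. edgeR called 0 of 3 carriers named outside the pattern, 0 of 15 other mitochondrial transporters, 0 of 12 genes of carrier import, 0 of 4 malate-aspartate shuttle enzymes, 0 of 4 carnitine shuttle enzymes, 0 of 12 genes of heme and iron-sulphur synthesis, 0 of 7 glycine and one-carbon enzymes and 0 of 11 regulators of mitochondrial biogenesis. Their medians ran from -0.15 for the glycine and one-carbon enzymes to 0.06 for carrier import. The lowest p among them was that of Cpox, coproporphyrinogen oxidase of heme synthesis (log2 fold change -0.37, edgeR adjusted p = 0.210). Got1, the cytosolic aspartate aminotransferase of the malate-aspartate shuttle, stood at 0.22 (edgeR adjusted p = 0.341).

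Between library name forms, 2 carriers passed the test, Slc25a30 and Slc25a22, and both were lower in hyphenated libraries. The edgeR fit held the group as a term and called 428 of 13977 genes (3.06%), 248 higher and 180 lower in hyphenated libraries (1.77% and 1.29%). With upper-quartile scaling the split was 184 higher and 218 lower, and both carriers were still called. The 2 carriers called are 4.88% of the 41. An unadjusted p under 0.05 was reached by 8 carriers, 19.5% of the family beside 18.8% of all genes. Of these, 2 were higher, 4.88% beside 9.82%, and 6 lower, 14.6% beside 9.01%. The family's median log2 fold change was 0.05, beside -0.01 over all genes, and 24 carriers lay above 0 and 17 below (58.5% and 41.5%, beside 48.6% and 51.4% of all genes).

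Slc25a30, known as kidney mitochondrial carrier protein 1, lies on the minus strand at chr14:75761999-75787037 (mm10). It had 26.08, 28.24 and 33.92 CPM in hyphenated I-PpoI replicate 3 and WT replicates 2 and 3, and 54.51, 52.14 and 65.88 CPM in plain I-PpoI replicates 1 and 2 and WT replicate 1. The highest hyphenated library was well below the lowest plain one. Means were 29.4 ± 4.05 CPM in hyphenated and 57.5 ± 7.34 CPM in plain libraries (SD, n = 3 each), and the log2 fold change was -1.06 ± 0.09 (edgeR adjusted p = 9.28e-04). The difference was -1.03 within I-PpoI and -1.09 within WT. Between I-PpoI and WT the gene stood at 0.05 ± 0.35 on the log2 scale (edgeR adjusted p = 0.964), and within plain and hyphenated names at -0.31 and -0.25. With the name form in that fit, the log2 fold change was -0.28 ± 0.09 (edgeR adjusted p = 0.235).

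Slc25a22, the first glutamate carrier, lies on the minus strand at chr7:141429749-141437874. It had 59.53, 54.67 and 53.19 CPM in hyphenated I-PpoI replicate 3 and WT replicates 2 and 3, and 67.37, 91.54 and 128.2 CPM in plain I-PpoI replicates 1 and 2 and WT replicate 1. The hyphenated libraries lay close together, and the plain ones were spread widely. The log2 fold change was -0.84 ± 0.18 (edgeR adjusted p = 0.0407), with -0.40 within I-PpoI and -1.25 within WT. WT replicate 1 set much of its size: without that library the log2 fold change was -0.41 (edgeR adjusted p = 0.169), and the call was also lost without I-PpoI replicate 2 (0.0780), WT replicate 2 (0.127) or WT replicate 3 (0.142). DESeq2 gave an adjusted p of 0.0639 and limma-voom one of 0.0442.

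The promoter windows of these 2 genes, the ones called, are shown as RefSeq gives them on GRCm38.p6, from 250 bases before to 50 after a transcript start, 5′ to 3′ on the gene's strand. Capitals mark matches, on either strand, of the motifs searched: the E-box CACGTG, the cAMP response element TGACGTCA, its part TGACG, the D-box TTATGNAA, the GC box GGGCGG, the ERR motif TCAAGGTCA and the CCAAT box. The short part TGACG lies within TGACGTCA on both strands.
Slc25a30, chr14:75786988-75787287: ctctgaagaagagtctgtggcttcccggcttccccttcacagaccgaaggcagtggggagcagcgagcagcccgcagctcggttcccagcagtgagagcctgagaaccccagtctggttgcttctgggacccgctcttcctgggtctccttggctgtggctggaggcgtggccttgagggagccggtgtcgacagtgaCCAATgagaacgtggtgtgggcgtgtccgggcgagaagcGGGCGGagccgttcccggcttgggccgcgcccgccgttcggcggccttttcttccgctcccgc
Slc25a22, chr7:141437825-141438124: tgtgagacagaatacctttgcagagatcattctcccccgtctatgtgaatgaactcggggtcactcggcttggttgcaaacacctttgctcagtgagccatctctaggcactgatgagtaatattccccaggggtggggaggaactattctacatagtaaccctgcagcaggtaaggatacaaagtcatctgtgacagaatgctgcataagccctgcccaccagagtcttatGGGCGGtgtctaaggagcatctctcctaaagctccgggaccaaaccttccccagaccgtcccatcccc
Slc25a22, chr7:141434545-141434844: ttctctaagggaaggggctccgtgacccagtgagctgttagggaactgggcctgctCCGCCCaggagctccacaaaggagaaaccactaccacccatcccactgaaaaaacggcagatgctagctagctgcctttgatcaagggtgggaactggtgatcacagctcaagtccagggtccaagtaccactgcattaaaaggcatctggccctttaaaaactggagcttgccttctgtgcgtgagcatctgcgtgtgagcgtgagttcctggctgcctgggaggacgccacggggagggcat
The Slc25a30 window has a GC box starting at position -13 and a CCAAT box at -52, counted from the transcript start at +1. Each of the Slc25a22 windows shown has a GC box, at -18 and at -194, and neither has a CCAAT box. Another Slc25a22 window, whose start is 781 bases from the nearest exon edge of the count table, is not shown. It holds 3 GC boxes, at -53, -48 and -43, and a CCAAT box at -32. GC boxes stand in 35.7% of all 32851 windows and CCAAT in 37.4%, while 38 and 22 of the carriers' 46 windows hold them. These matches are a description of letters in the windows and not of bound sites.

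The other carriers that separated by name form did not pass the test. Slc25a20 had 112.2, 118 and 117.1 CPM in hyphenated libraries and 140.4, 177.6 and 142.3 CPM in plain libraries, without overlap (log2 fold change -0.39 ± 0.10, edgeR adjusted p = 0.0867, DESeq2 adjusted p = 0.0302). Slc25a17 averaged 142.3 ± 1.47 CPM in hyphenated and 164.6 ± 7.30 CPM in plain libraries (SD, n = 3 each; edgeR adjusted p = 0.115), and Slc25a3 958.4 ± 23.2 CPM in hyphenated and 1080 ± 11.7 CPM in plain libraries (edgeR adjusted p = 0.189). On the other side, Slc25a37 averaged 43.8 ± 2.05 CPM in hyphenated and 35.8 ± 2.01 CPM in plain libraries (edgeR adjusted p = 0.110), and Slc25a39 893.1 ± 57.3 CPM in hyphenated and 756.1 ± 21.1 CPM in plain libraries (edgeR adjusted p = 0.165). Slc25a11, Slc25a23, an ATP-Mg/phosphate carrier, and Slc25a28 were also higher in all 3 hyphenated libraries, with log2 fold changes of 0.12 to 0.15. Thus 10 carriers did not overlap between the forms (24.4% of the family, beside 25.4% of all genes). Of these, 5 were higher, 12.2% beside 12.4% of all genes, and 5 lower, 12.2% beside 13%.

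**Figure D5:**
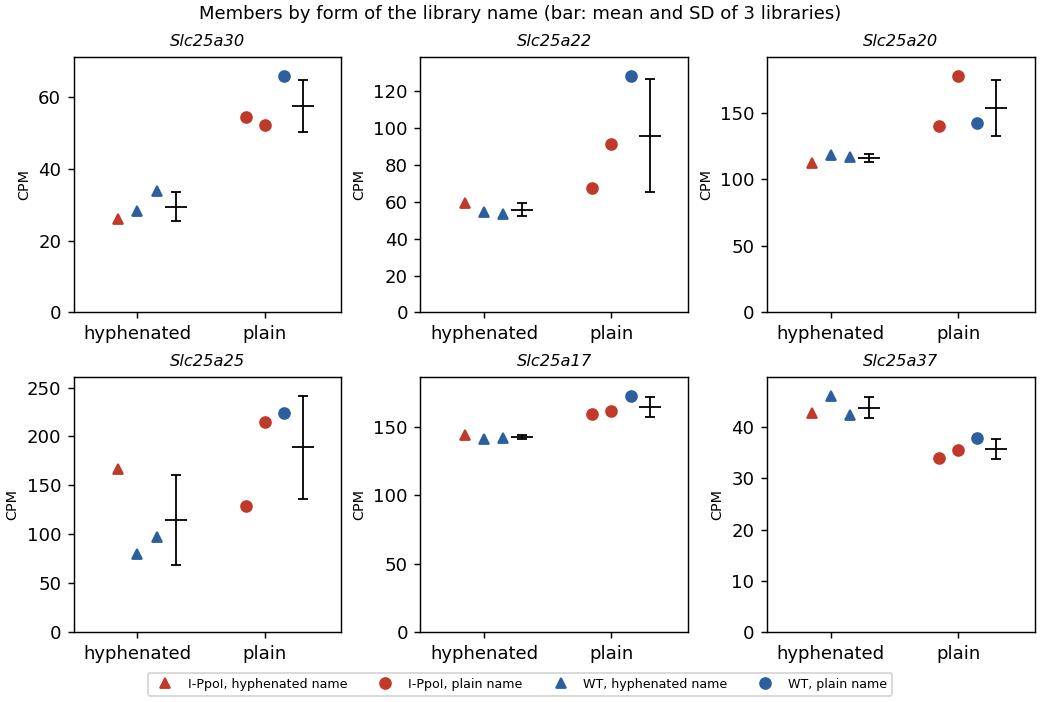
CPM per library of 6 carriers by form of the library name, hyphenated left and plain right, with mean and SD of 3 libraries beside the points; red is I-PpoI, blue WT, triangles hyphenated and circles plain names. Slc25a30 separates by form in both groups, Slc25a22 is widely spread among plain libraries up to 128.2 CPM, and Slc25a25 follows the form in WT but not in I-PpoI.

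Slc25a25, a calcium-dependent ATP-Mg/phosphate carrier on the minus strand at chr2:32414487-32451470, varied most of the 41 tested carriers, with a coefficient of variation of 39.7% over the 6 libraries. It had 166.6, 79.65 and 96.78 CPM in hyphenated I-PpoI replicate 3 and WT replicates 2 and 3, and 128.4, 214.7 and 224 CPM in plain I-PpoI replicates 1 and 2 and WT replicate 1. The forms overlapped through I-PpoI replicates 1 and 3. The log2 fold change between forms was -0.69 ± 0.27 (edgeR adjusted p = 0.209), with 0.00 within I-PpoI and -1.35 within WT. Single libraries decided this value: without I-PpoI replicate 3 it was -1.33 and was called (edgeR adjusted p = 0.0248), and without WT replicate 1 it was -0.04 (edgeR adjusted p = 0.946). Its exons share 808 bases with Naif1 on the opposite strand, which had 2.312 to 3.069 CPM. After Slc25a25 the most variable tested members were Slc25a22 at 38.7%, Slc25a30 at 37.5%, Slc25a48 at 28.4%, Slc25a47 at 27.1%, Slc25a27, the uncoupling protein relative UCP4, at 25.6% and Slc25a29, a carrier of basic amino acids, at 25.1%. The median coefficient of variation of the tested carriers was 12%, beside 11.9% over all genes.

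Slc25a25 and Slc25a36 were the members whose windows hold the full cAMP response element, and both windows are shown with capitals as above.
Slc25a25, chr2:32424017-32424316: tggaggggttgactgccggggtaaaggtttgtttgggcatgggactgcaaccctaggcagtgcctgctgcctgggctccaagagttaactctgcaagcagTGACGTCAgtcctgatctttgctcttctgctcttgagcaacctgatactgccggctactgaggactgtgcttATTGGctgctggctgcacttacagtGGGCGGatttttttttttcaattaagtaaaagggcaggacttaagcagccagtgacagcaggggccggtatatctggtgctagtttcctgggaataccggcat
Slc25a36, chr9:97110992-97111291: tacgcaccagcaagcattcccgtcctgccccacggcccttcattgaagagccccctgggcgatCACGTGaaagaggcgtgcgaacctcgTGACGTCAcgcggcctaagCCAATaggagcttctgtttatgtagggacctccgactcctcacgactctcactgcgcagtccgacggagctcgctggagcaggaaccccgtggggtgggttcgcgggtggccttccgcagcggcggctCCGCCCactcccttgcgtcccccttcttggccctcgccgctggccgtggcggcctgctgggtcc
The element starts at -150 in Slc25a25 and at -161 in Slc25a36, where an E-box starts at -187. The other two Slc25a25 windows do not hold it. It stands in 1.79% of all windows and an E-box in 7.15%, and 2 and 8 of the carriers' 46 windows hold them. Their fold changes had opposite signs in both contrasts: Slc25a36 had a log2 fold change between forms of 0.16 ± 0.08 and Slc25a25 one of -0.69 ± 0.27, and between I-PpoI and WT they stood at -0.37 ± 0.10 and 0.35 ± 0.36.

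Carriers passing edgeR's test of whether the I-PpoI effect differed between name forms numbered 0, beside 96 of all genes (0.687%), and DESeq2 also called 0 carriers. An unadjusted p under 0.05 was reached by 6 carriers on the higher side and 2 on the lower, 14.6% and 4.88% of the family beside 7.81% and 6.24% of all genes. Slc25a25 had the largest of these estimates, 1.30 ± 0.34 on the log2 scale, with an edgeR adjusted p of 0.145, and Slc25a22 had 0.83 with the same adjusted p. Plain-named WT and hyphenated I-PpoI hold 1 library each in that design.

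Of the genes beside the carriers, 3 passed between name forms. Ucp2, a carrier of the family that is named outside the pattern, fell in hyphenated libraries, with 138.5, 137.3 and 118.1 CPM in hyphenated I-PpoI replicate 3 and WT replicates 2 and 3 and 215.2, 311.9 and 211.4 CPM in plain I-PpoI replicates 1 and 2 and WT replicate 1 (log2 fold change -0.83 ± 0.14, edgeR adjusted p = 0.0202). Sfxn3, a sideroflexin of the mitochondrial membrane, rose, averaging 31.2 ± 3.76 CPM in hyphenated and 23.3 ± 1.41 CPM in plain libraries (log2 fold change 0.48 ± 0.09, edgeR adjusted p = 0.0255). Esrra, a nuclear receptor that regulates mitochondrial genes, rose as well, averaging 169.7 ± 8.55 CPM in hyphenated and 134.1 ± 4.05 CPM in plain libraries (log2 fold change 0.33 ± 0.07, edgeR adjusted p = 0.0471). Shmt2, the mitochondrial serine hydroxymethyltransferase, and Mcu, the calcium uniporter, stood at 0.37 and 0.36 with edgeR adjusted p of 0.0523 and 0.0550. These calls are 1 of 3 other carriers, 1 of 15 transporters and 1 of 11 regulators, and the remaining lists had 0, beside 3.06% of all genes tested. Proximal tubule markers moved with the form too: they summed to 32060 to 35580 CPM in hyphenated and 25130 to 29930 CPM in plain libraries, 18 of 20 lay above 0 and 3 rose. Of 12 markers of the proximal straight tubule, 6 rose and 1 fell, and their sums were 8448 to 11100 CPM in hyphenated and 5822 to 7830 CPM in plain libraries. Over all genes 1.77% rose and 1.29% fell. The part of these markers in the carrier differences was not tested.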

How the data were processed

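The authors mapped the reads with HISAT2 and counted read pairs over exons with featureCounts 1.5.2, per the file headers and the labels' protocols. The deposited counts are raw. The header names a UCSC mm10 annotation, sets no strand option and does not count reads that map to several places; the labels name mm9, and all 47 members overlapped their RefSeq positions on GRCm38.p6 (mm10), so coordinates are mm10. The exon lengths of the deposited table were used per kb. The authors also deposited log2 values on the regularized log scale; the submitters' processing notes name DESeq2.

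Tests used edgeR 4.0.16 in R 4.3.3 on the counts as deposited: filterByExpr (minimum count 10), TMM scaling, the quasi-likelihood test and Benjamini-Hochberg adjustment over 13977 genes, at an adjusted p of 0.05. I-PpoI was compared with WT on all 6 libraries, name forms with the group as a term, and the interaction of both. CPM use TMM-adjusted totals, and log2 CPM a prior count of 0.5. The SE given for an edgeR log2 fold change is its absolute value divided by the square root of the test's F statistic. DESeq2 1.42.0, limma 3.58.1, other scalings and filters, the name form, a replicate block and leaving out each library were alternatives. Named are carriers with an unadjusted p under 0.05 in either of the 2 contrasts (I-PpoI against WT alone, and name forms), the 8 smallest p in each, the 10 highest levels, those without overlap and those filtered out, and other pathway genes by smallest p. Carriers that illustrate a class were added by role. Slc25a34 was added for its p with the name form held in the fit. Members, lists and tests were chosen with earlier results of these data known. The depth of 13582540 to 20861021 pairs limits members under about 1 CPM. Promoter windows are from RefSeq, matched by symbol for 36 members. Of the tested carriers, 1 is named in neither text nor figures, though it is counted in the totals.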

Additional observations from a re-analysis of the deposited data

Results flagged for a closer look

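The I-PpoI effect differed between library name forms for 96 genes of the whole table by edgeR's interaction test (66 higher and 30 lower), and 0 of these were Slc25 members. It was noted because the same contrast gave different effects in hyphenated and in plain libraries by a test of the difference itself. Plain-named WT and hyphenated I-PpoI hold 1 library each. The nearest carriers were Slc25a22 and Slc25a25, both with an adjusted p of 0.145.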

How the results depend on the processing

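Of the 8 carriers with the smallest p for I-PpoI against WT, 116 values under alternatives kept their direction and their side of the threshold and 4 passed it: Slc25a51 with DESeq2, and Slc25a13, Slc25a16 and Slc25a36 without I-PpoI replicate 3 (edgeR adjusted p = 0.0380, 0.0384 and 0.0248). For the 8 between name forms, 110 were alike, 2 passed (Slc25a20 with DESeq2, Slc25a25 without I-PpoI replicate 3) and 8 lost the call, all of Slc25a22. Slc25a30 was called under every alternative, at log2 fold changes of -1.21 to -0.96 on counts and -0.58 on the rlog values, and 0 values reversed. Among these alternatives, the replicate block rested on replicate 2 alone for the difference between name forms. The fits with no filter and with DESeq2 took in 18677 genes, beside 13977 in the main fit. Between I-PpoI and WT, 19 genes became 47 with no filter, 187 with DESeq2 and 64 with the name form in the fit, and ran from 0 to 625 without each library; carriers called were 1 with DESeq2 and ran from 0 to 3, and the carriers' median from -0.10 to -0.06, with -0.03 by limma-voom and -0.02 on the rlog values. Between name forms, 428 genes became 682 with DESeq2 and ran from 124 to 830 without each library; carriers called were 1 on the rlog values, 1 without the group term and 1 to 3 without each library, and the median ran from 0.01 to 0.06, with 0.02 under upper-quartile scaling, 0.03 on the rlog values and 0.09 without the group term. For the interaction, 96 genes became 215 with no filter (1 carrier, Slc25a25) and ran from 111 to 859 without each library (0 to 6 carriers); it could not be fitted without I-PpoI replicate 3 or WT replicate 1. The causes were not tested.

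Replicates share a number only: deviations of same-numbered libraries correlated at 0.21, -0.12 and 0.17, and not every library correlated best with its own number. With the replicate block, 40 genes (0 carriers) were called between I-PpoI and WT, and 55 genes and 1 carrier between name forms, where the carriers' median was -0.040.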
